A study of Mus musculus with 12 samples.

Results

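Expression of the proteasome subunit genes was described in blood stem and progenitor cells with and without the transcription factor NFAT5. Genes were taken by symbol: Psma1 to Psma7, Psmb1 to Psmb7, Psmc1 to Psmc6, the Psmd series and Psme1 to Psme4. The inducible immunoproteasome subunits Psmb8, Psmb9 and Psmb10 were left out of this set and are described after it. The rule found 37 of the 19494 named genes on the array. They comprised 7 genes of the alpha ring, 6 of the beta ring, 6 ATPases and 3 further subunits of the base, 8 lid subunits, 3 assembly chaperones that carry Psmd names, and 4 activators. Psmb5, a catalytic subunit, was not analysed here.

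The cells came from bone marrow chimaeras. Donor marrow came from Nfat5 fl/fl Vav-Cre mice, called NFAT5-deficient, or from Nfat5 +/+ Vav-Cre mice, called wild-type. It carried the CD45.2 allele, and the irradiated recipients were wild-type and carried CD45.1. Both donor genotypes therefore had the Cre transgene, whose Vav promoter is active throughout the blood lineage and not in stem cells alone. Donor-derived cells were sorted 13 weeks after transplantation as hematopoietic stem cells (HSC, CD150+ and CD48-) and multipotent progenitors (MPP, CD48+ and CD150-), both from lineage-negative, Sca-1-positive, Kit-positive marrow. Each of the 4 groups had 3 arrays, numbered 66, 67 and 75 in wild-type and 64, 70 and 76 in NFAT5-deficient cells, and each array was made from 300 pg of amplified total RNA. The labels do not say whether an array holds 1 animal or a pool, and p-values measure only the spread between these samples. The labels give no age for the animals.

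The proteasome is the protease that degrades proteins tagged with ubiquitin. Its core particle is a barrel in which outer alpha rings gate the entrance and inner beta rings carry the cutting sites. The regulatory particle sits on the barrel: its base binds tagged proteins and unfolds them with a ring of ATPases, and its lid removes the ubiquitin. Alternative caps, the activators, open the barrel without ubiquitin. Genes for the subunits are known to be induced together by the transcription factor NRF1 (Nfe2l1) when proteasome activity is short. Blood stem cells make protein slowly and are known to be sensitive to unbalanced protein synthesis and degradation.

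Nfat5 itself read lower on NFAT5-deficient arrays. Its log2 intensity was 9.49 ± 0.29 (SD, n = 3) against 8.24 ± 0.58 in HSC, where the arrays did not overlap (exact two-sided permutation p = 0.1, the lowest value possible with 3 arrays a group). The MPP values were 8.58 ± 0.41 against 7.92 ± 0.42 (exact permutation p = 0.2). The gate markers differed as sorted, with Slamf1 (CD150) higher in HSC by 3.58 (wild-type) and 3.62 (NFAT5-deficient), and Cd48 lower, with log2 differences of -3.43 and -3.78. Wild-type HSC array 66 and NFAT5-deficient HSC array 70 lay at opposite ends of the second principal component (58.12 and -42.83). Where the difference of a gene was larger than its SE and moved by over 1.5 times without a single array, the value without that array is given.

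No proteasome gene passed the test in any comparison. The test was limma over all 19494 genes, with a call at a Benjamini-Hochberg adjusted p under 0.05. Between genotypes, 0 of 37 were called in HSC, where 0% of all genes were called, and 0 of 37 in MPP, where 0.00513% were. Since 0% of all genes were called in HSC, Nfat5 itself did not pass there either. Between HSC and MPP, 0 of 37 were called in wild-type cells (0.164% of all genes), 0 of 37 in NFAT5-deficient cells (0.21%) and 0 of 37 in the mean of both genotypes (0.61%). For the genotype difference averaged over both populations (0% of all genes), and for the difference of the NFAT5 effects between HSC and MPP (0%), the count was likewise 0 of 37. At an unadjusted p under 0.05 the counts between genotypes were 1 in HSC (6.18% of all genes), 3 in MPP (5.35%) and 3 in their mean (7.11%), and 1 for the difference of the effects (4.19%). Between HSC and MPP they were 5 for wild-type cells (8.9%), 2 for NFAT5-deficient cells (7.9%) and 3 for both genotypes averaged (12.2%). Each count lay within 2 genes of what the share of all genes gives for 37.

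**Figure D1:**
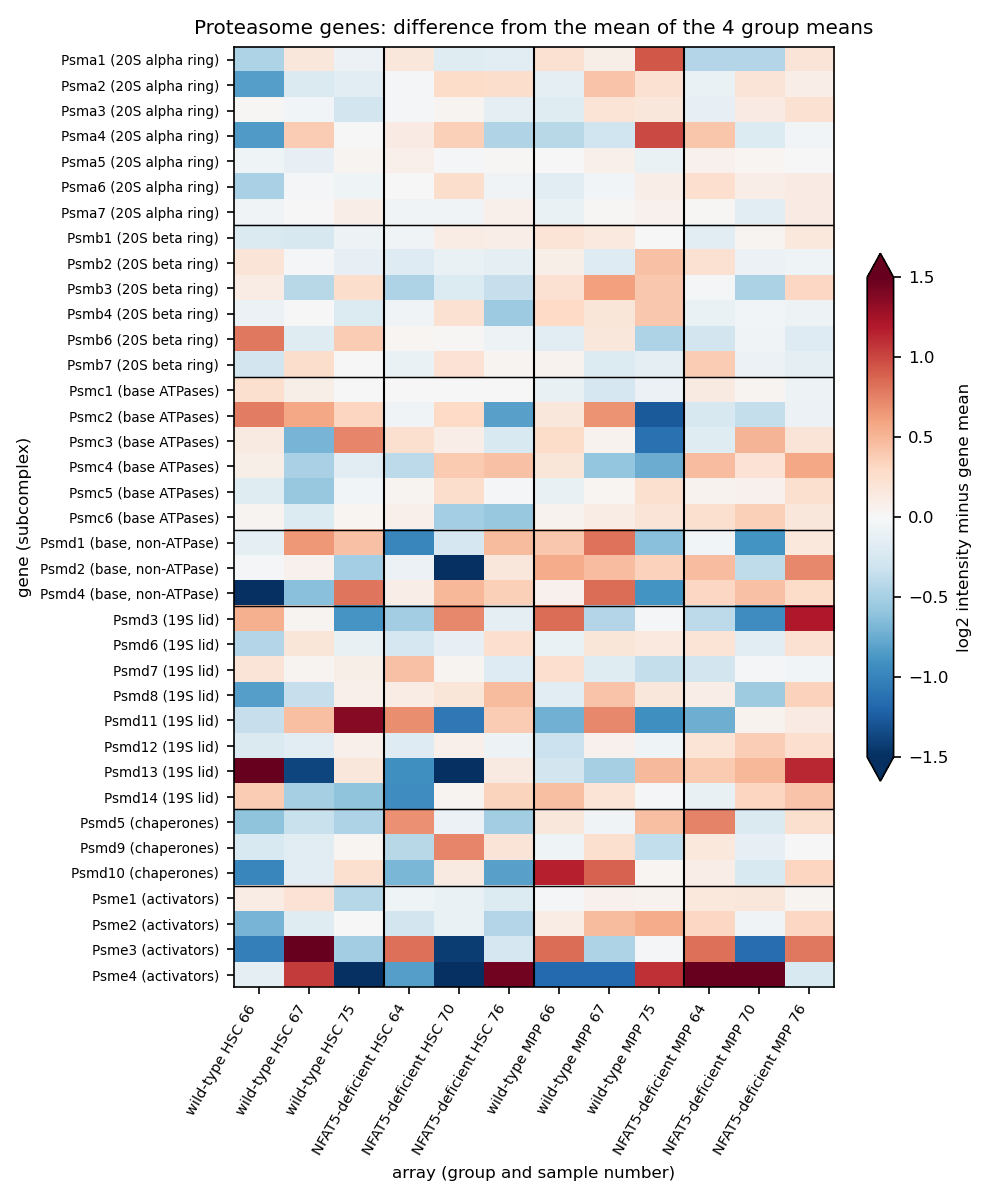
Each row is 1 of the 37 proteasome genes, ordered by subcomplex, and each column 1 of the 12 arrays. Colour gives the gene's log2 intensity minus the mean of its 4 group means, limited to 1.5 in either direction. Rows of the alpha and beta rings are pale on most arrays, while Psmd13, Psme3 and Psme4 change colour between arrays of the same group.

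The proteasome genes as a set had nearly the same level with and without NFAT5. In HSC, 19 of 37 genes read higher and 18 lower in NFAT5-deficient cells (58.4% of all genes read lower, and 49.8% of genes above the median level, where all 37 lay). The median log2 difference was 0.02, against -0.05 over all genes and 0.003 over genes above the median level. In MPP, 21 read higher and 16 lower (61.1% of all genes lower, 51.6% of those above the median level). The median there was 0.01, against -0.07 over all genes and -0.013 over genes above the median level. Quantile normalization turned the sign of both medians, to -0.0255 in HSC and -0.0295 in MPP, so neither has a settled direction. Of the 37 genes, 12 read higher in both populations (19% of all genes, 27.2% of those above the median level) and 9 lower in both (38.5% and 28.6%).

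The intervals show what these arrays could have missed. The 95% confidence interval of the genotype difference lay within 1 log2 unit of 0, which leaves out a doubling and a halving, for 22 genes in HSC (68.4% of all genes) and 23 in MPP (69.2%). Averaged over both populations it did so for 28 genes (81.2%), and it lay within 0.5 for 16 (52.2%). For the other genes the interval still holds a change of 1 log2 unit.

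**Figure D2:**
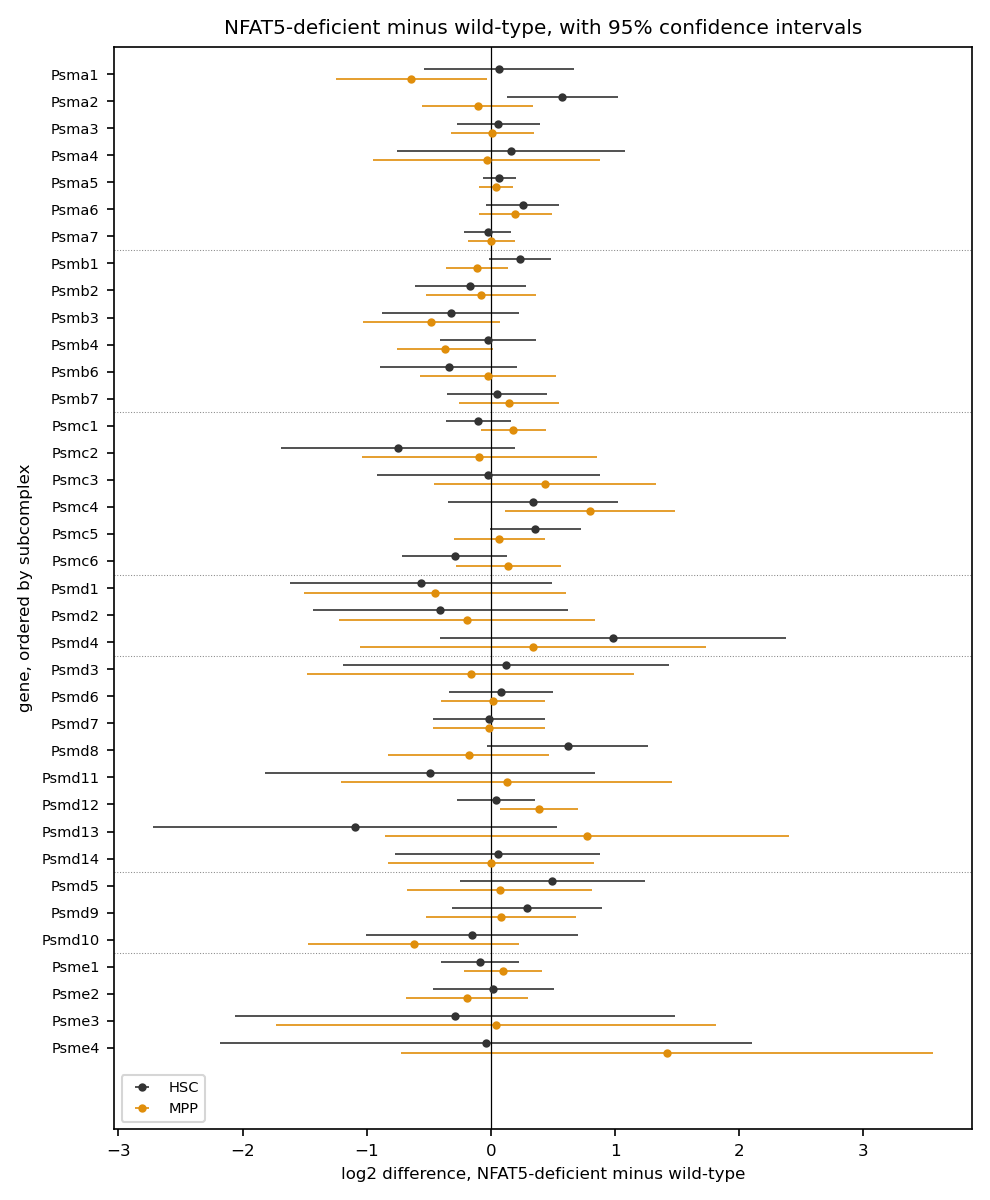
Log2 difference, NFAT5-deficient minus wild-type, of each of the 37 genes in HSC and in MPP, with 95% confidence intervals from limma, 3 arrays per group. Points of both populations scatter on both sides of 0, and intervals are narrow for Psma5, Psma7 and Psmc1 and wide for Psme3, Psme4 and Psmd13.

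Between populations, most proteasome genes read slightly lower in HSC than in MPP. In the mean of both genotypes 27 of 37 genes were lower (36.6% of all genes, 47.6% of genes above the median level), with a median log2 difference of -0.15 against 0.06 over all genes and 0.02 over genes above the median level. In wild-type cells 24 genes were lower (41.4% of all genes, 49.5% of those above the median level) and the median was -0.15. In NFAT5-deficient cells 25 were lower (37.9% and 47.2%) and the median was -0.05. These genotypes share no array, and 18 genes read lower in both (20.4% of all genes, 29.1% of those above the median level) while 6 read higher in both (41.1% and 32.3%). Single arrays moved these values: without wild-type HSC array 66 the wild-type median was -0.0376, and that of NFAT5-deficient cells was -0.162 if HSC array 70 was left out and -0.035 if HSC array 76 was. Without wild-type HSC array 66 and NFAT5-deficient HSC array 70, the median in the mean of both genotypes was -0.131, with 26 lower. Scaling mattered most in NFAT5-deficient cells, where quantile normalization gave a median of -0.00348 with 19 genes lower and median centring -0.111 with 30 lower. By array, the median level of the 37 genes overlapped between HSC and MPP in each genotype. Each gene's deviation from the mean of its 4 group means was also taken. In wild-type cells its median was -0.136 to -0.0025 on HSC arrays and 0.052 to 0.0821 on MPP arrays. NFAT5-deficient array 70 went the other way, at 0.0352 in HSC and -0.0429 in MPP. The other NFAT5-deficient arrays lay at -0.0533 and -0.0469 in HSC and 0.104 and 0.167 in MPP.

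Cell cycle genes read lower in HSC as well. All 13 measured proliferation markers read lower in HSC in the mean of both genotypes, with a median log2 difference of -0.40. Their mean level per array was 9.16 to 9.57 on the 6 HSC arrays and 9.67 to 10.03 on the 6 MPP arrays, without overlap. Of 9 mature neutrophil markers 6 read lower in HSC (median -0.30). In HSC 8 of 9 read lower without NFAT5 (median -0.92, against 58.4% of all genes lower), and none was called. Their mean was 5.52 to 7.38 on wild-type HSC arrays, 5.42 to 5.53 on NFAT5-deficient HSC arrays and 5.96 to 7.02 on MPP arrays. Wild-type HSC arrays 66 and 67 read 6.88 and 7.38, while array 75, at 5.52, lay within the NFAT5-deficient HSC range. The part of either list in the proteasome values was not tested. In bulk samples, fewer cells of a type and less RNA per cell cannot be told apart.

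**Figure D3:**
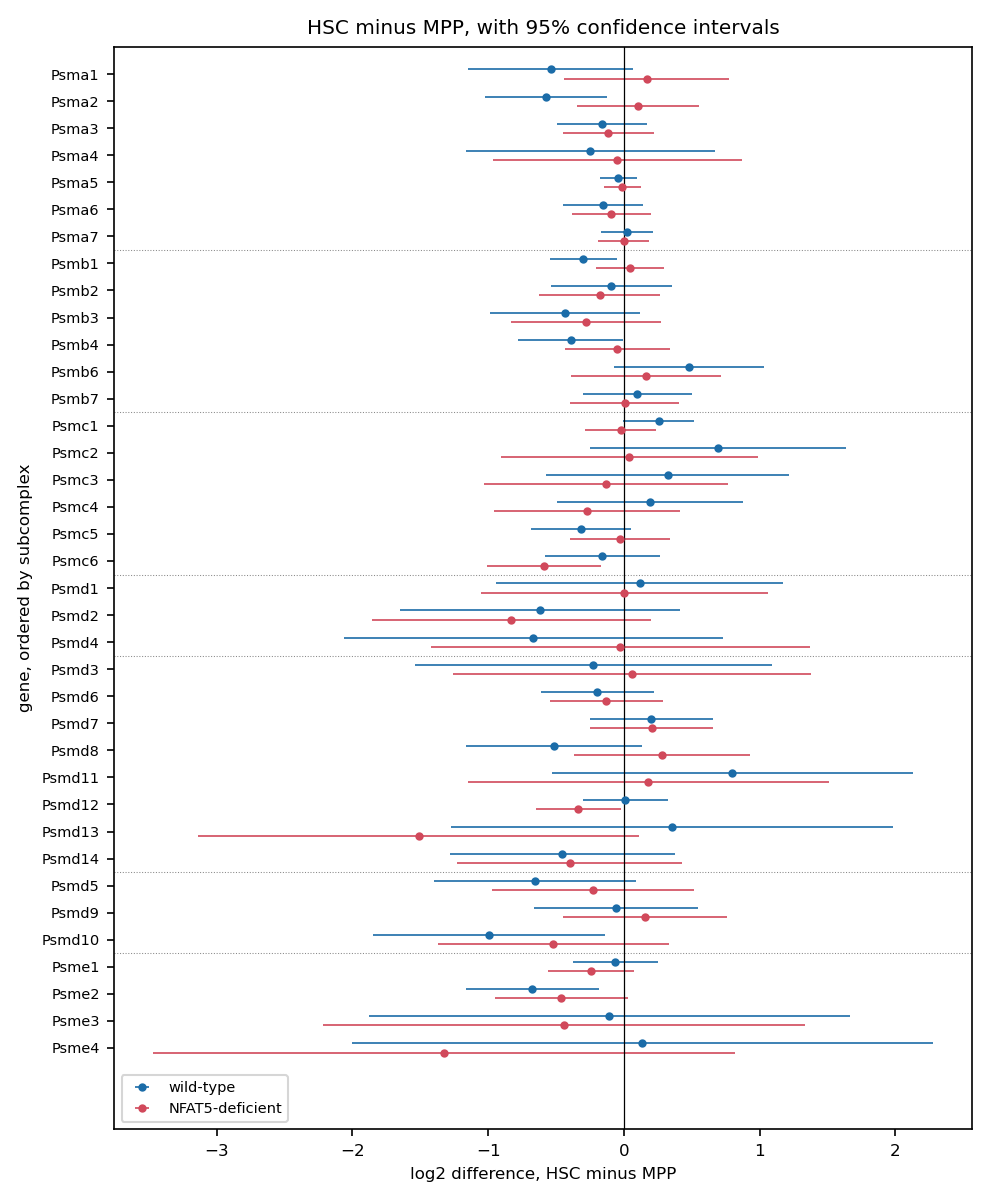
Log2 difference, HSC minus MPP, of each of the 37 genes in each donor genotype, drawn in separate colours, with 95% confidence intervals from limma, 3 arrays per group. More points lie left of 0 than right of it in both genotypes, and most intervals cross 0.

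The alpha ring, which forms the gate of the core particle, had the smallest median spread between arrays of all subcomplexes. Not every alpha gene was flat: Psma4 ran from 9.74 to 11.58. Its SD within groups was 0.567, above the widest beta ring gene (0.300). Psma5 read 12.41, 12.35 and 12.52 in wild-type HSC, 12.54, 12.44 and 12.50 in NFAT5-deficient HSC, 12.48, 12.55 and 12.37 in wild-type MPP, and 12.54, 12.50 and 12.47 in NFAT5-deficient MPP. All 12 values lay between 12.35 and 12.55 and the groups overlapped. Its genotype differences were 0.07 in HSC and 0.04 in MPP (SE 0.06), the former between 0.0314 (without wild-type array 67) and 0.114 (without wild-type array 75) with arrays left out in turn; it was also moved by NFAT5-deficient array 64. Psma7 was as flat, with differences of -0.03 in HSC and 0.00 in MPP (SE 0.09).

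Psma2 was the alpha subunit with the largest genotype difference in HSC. It read 10.20, 10.82 and 10.86 in wild-type and 11.00, 11.31 and 11.29 in NFAT5-deficient HSC, and 10.89, 11.46 and 11.26 in wild-type and 10.93, 11.23 and 11.13 in NFAT5-deficient MPP. The HSC groups did not overlap, wild-type HSC being the lowest of the 4 groups, while the MPP groups did. Its difference was 0.57 in HSC (SE 0.20, limma adjusted p = 0.779, unadjusted p = 0.0167) and -0.10 in MPP. The interaction, which is the HSC effect minus the MPP effect, was 0.68 (SE 0.29, limma adjusted p = 0.999). HSC minus MPP was -0.58 in wild-type cells (limma adjusted p = 0.439) and 0.10 in NFAT5-deficient cells. Without wild-type HSC array 66 the genotype difference in HSC was 0.362 and the wild-type HSC minus MPP difference -0.364.

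Of the other alpha genes, Psma6 averaged 0.23 higher in NFAT5-deficient cells over both populations (SE 0.09, limma adjusted p = 0.69). Psma1 had a genotype difference of -0.64 in MPP (SE 0.27, limma adjusted p = 0.896) and 0.07 in HSC. The MPP difference was -0.385 without wild-type MPP array 75, its highest.

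The beta ring holds the cutting sites. Psmb6, the caspase-like catalytic subunit, read 10.81, 9.83 and 10.39 in wild-type HSC and 10.04, 10.03 and 9.94 in NFAT5-deficient HSC, and 9.86, 10.19 and 9.55 in wild-type and 9.74, 9.96 and 9.82 in NFAT5-deficient MPP. The wild-type HSC arrays were widely spread and overlapped those of every other group. Its genotype difference was -0.34 in HSC, with a 95% interval from -0.89 to 0.21, and -0.02 in MPP. The HSC value was -0.107 without wild-type array 66 and -0.597 without wild-type array 67. It was 1 of the 10 genes that read higher in HSC than in MPP over both genotypes, by 0.32 (SE 0.18, limma adjusted p = 0.494), or 0.205 without wild-type HSC array 66.

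Psmb7, the trypsin-like catalytic subunit, read 10.58, 11.12 and 10.86 in wild-type HSC, 10.75, 11.07 and 10.90 in NFAT5-deficient HSC, 10.91, 10.65 and 10.70 in wild-type MPP, and 11.23, 10.77 and 10.71 in NFAT5-deficient MPP. All 4 groups overlapped. The genotype difference was 0.05 in HSC (95% interval -0.35 to 0.45) and 0.15 in MPP (-0.26 to 0.55), so both intervals leave out a doubling or halving.

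Psmb1, a structural beta subunit, had a small and regular pattern. It read 10.95, 10.92 and 11.08 in wild-type HSC, below all arrays of NFAT5-deficient HSC (11.11, 11.28 and 11.27) and of wild-type MPP (11.37, 11.32 and 11.17). NFAT5-deficient MPP read 11.00, 11.20 and 11.32 and overlapped the others. HSC minus MPP was -0.30 in wild-type cells (SE 0.11, limma adjusted p = 0.48) and 0.05 in NFAT5-deficient cells. The genotype difference was 0.23 in HSC and -0.11 in MPP, with an interaction of 0.34 (SE 0.16, limma adjusted p = 0.999). As with Psma2, wild-type HSC was the low group. It had the lowest mean for other proteasome genes too, among them Psma6, Psmc5 and Psmd8, and the share over all genes was not counted.

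Other beta genes went another way by genotype. Psmb3 read lower in NFAT5-deficient cells by a mean of -0.40 over both populations (SE 0.18, limma adjusted p = 0.693). In MPP, the wild-type arrays of Psmb4 (11.10, 10.99 and 11.20) all lay above the NFAT5-deficient ones (10.70, 10.76 and 10.72), a difference of -0.37 (SE 0.17, limma adjusted p = 0.896). In HSC its difference was -0.02.

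**Figure D4:**
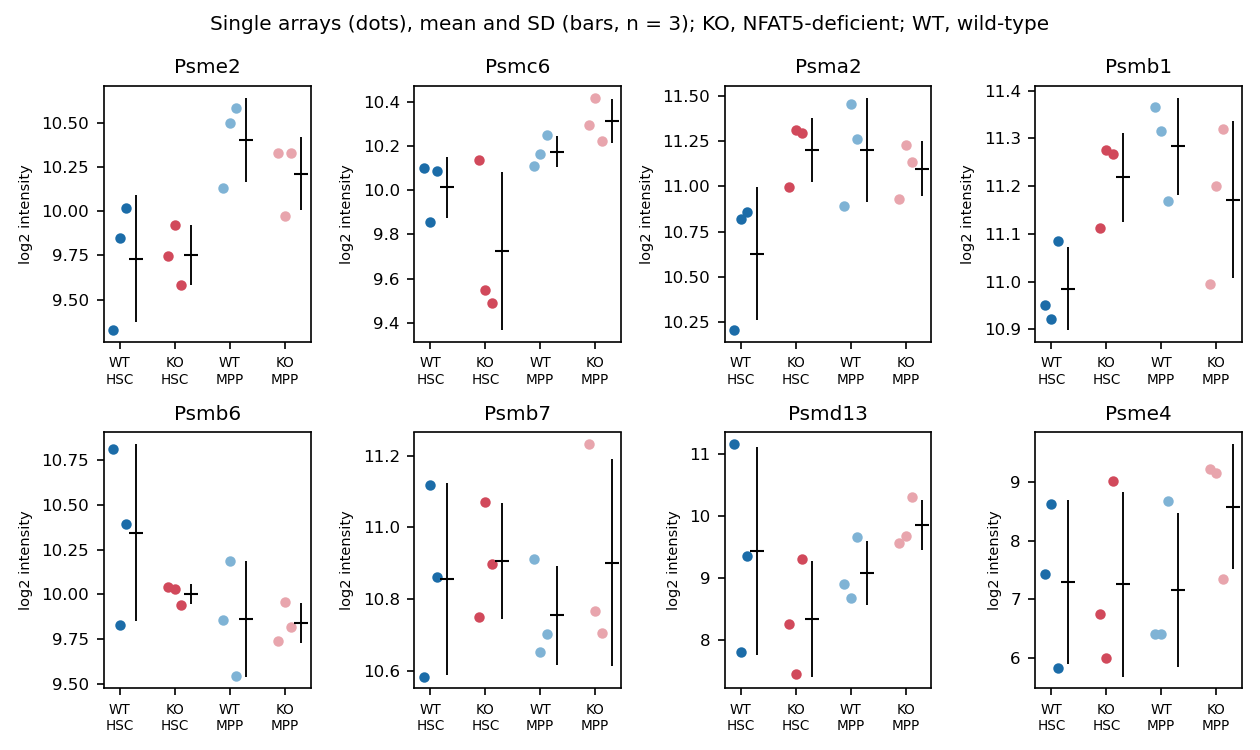
Log2 intensity of 8 proteasome genes on each array (points), with the mean and SD of each group of 3 arrays. Psme2 is lower on HSC than on MPP arrays, Psma2 and Psmb1 have wild-type HSC as their lowest group, and the points of Psmd13 and Psme4 spread over more than 2 log2 units within a group.

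The ATPases of the base, which unfold substrates and thread them into the barrel, lay on both sides of 0 in each comparison. Psmc6 read 10.10, 9.86 and 10.09 in wild-type and 10.14, 9.55 and 9.49 in NFAT5-deficient HSC, against 10.11, 10.17 and 10.25 in wild-type and 10.30, 10.42 and 10.22 in NFAT5-deficient MPP. Its HSC arrays lay below its MPP arrays in each genotype, though in wild-type the nearest were 10.10 and 10.11. HSC minus MPP was -0.16 in wild-type cells, -0.59 in NFAT5-deficient cells (SE 0.19, limma adjusted p = 0.454) and -0.37 in their mean (SE 0.14, limma adjusted p = 0.314).

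Psmc4 read higher in NFAT5-deficient MPP (10.03, 9.78 and 10.14) than in wild-type MPP (9.75, 8.99 and 8.81), without overlap, a difference of 0.80 (SE 0.31, limma adjusted p = 0.896). In HSC it read 9.65, 9.07 and 9.40 in wild-type and 9.17, 9.96 and 10.01 in NFAT5-deficient cells, which overlapped, with a difference of 0.34 (SE 0.31). That value ran from 0.187 without wild-type array 67 to 0.609 without NFAT5-deficient array 64, and NFAT5-deficient arrays 70 and 76 also moved it by over 1.5 times. Psmc2 went the other way in HSC, with wild-type arrays at 11.73, 11.55 and 11.28 and NFAT5-deficient ones at 10.91, 11.26 and 10.15, a difference of -0.75 (SE 0.43, limma adjusted p = 0.86), or -0.435 without NFAT5-deficient array 76. Its MPP difference was -0.09. Psmc1, the most evenly measured ATPase, read higher in HSC than in MPP in wild-type cells by 0.26 (SE 0.12, limma adjusted p = 0.568) and differed by -0.02 in NFAT5-deficient cells.

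Promoters of some base and lid genes are shown because 1 short motif recurs in them close to the start of transcription. RefSeq windows of build GRCm38.p6 were available for 31 of the 37 genes. The 250 bases before the start were searched on both strands for 5 motifs, chosen after the expression values had been seen. They were CCGGAAG (the core of sites of ETS factors), TGACNNNGC (the antioxidant response element, bound by NRF1 and NRF2), CCAAT (bound by NF-Y), TGGAAA (the first letters of NFAT5 sites) and the core of the interferon-stimulated response element (GAAA repeated after a gap of 2 bases). The ETS letters were in 11 of 31 proteasome genes (35.5%), against 7.8% of all 27025 genes with a window and 15.7% of the 7979 measured genes above the median level. Among genes with a window, they were in 8 of 17 Psmc and Psmd genes, chaperones included, and in 1 of 10 Psma and Psmb genes. They were also in the activators Psme3 and Psme4, so they were not particular to base and lid genes. In 5 genes the match lay within 30 bases before the start, each on the minus strand as CTTCCGG. The share of all genes with a match that near was not counted, so whether this placement is unusual is not known. The other shares were near those of all genes for TGACNNNGC (12.9% against 11.5%), CCAAT (38.7% against 37.5%) and TGGAAA (19.4% against 20.9%). The interferon core was in 3 genes (9.7% against 3.5%), and in Psmd4 it overlaps the TGGAAA match. A match is a description of letters and does not show a bound site. The 120 bases before the start are given for those 5 genes, for Psmc6, whose match lies farther off, and for Psmb6, where the antioxidant response element ends at the start. All are on the plus strand, and capitals mark the matches to CCGGAAG or TGACNNNGC:
Psmc1 (chr12:100110082-100110201): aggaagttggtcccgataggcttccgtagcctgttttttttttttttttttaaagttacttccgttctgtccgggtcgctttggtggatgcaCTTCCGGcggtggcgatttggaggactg
Psmc2 (chr5:21786627-21786746, 1 of 2 windows): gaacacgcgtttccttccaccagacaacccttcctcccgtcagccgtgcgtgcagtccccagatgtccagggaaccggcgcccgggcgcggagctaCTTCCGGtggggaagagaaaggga
Psmd2 (chr16:20651532-20651651): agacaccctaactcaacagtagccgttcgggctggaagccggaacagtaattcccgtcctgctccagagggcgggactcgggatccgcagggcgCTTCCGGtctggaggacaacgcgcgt
Psmd11 (chr11:80428495-80428614): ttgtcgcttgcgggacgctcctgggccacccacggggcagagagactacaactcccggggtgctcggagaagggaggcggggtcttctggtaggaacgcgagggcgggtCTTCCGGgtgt
Psmd12 (chr11:107479408-107479527): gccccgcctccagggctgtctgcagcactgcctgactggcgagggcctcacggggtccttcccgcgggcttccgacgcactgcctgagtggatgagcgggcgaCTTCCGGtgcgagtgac
Psmc6 (chr14:45329704-45329823): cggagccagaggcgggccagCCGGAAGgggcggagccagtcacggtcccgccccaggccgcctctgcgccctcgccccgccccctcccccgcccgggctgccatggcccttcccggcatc
Psmb6 (chr11:70525237-70525356): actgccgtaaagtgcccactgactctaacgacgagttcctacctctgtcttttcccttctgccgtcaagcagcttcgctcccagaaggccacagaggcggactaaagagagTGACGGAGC

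Genes with the near ETS match had differences on both sides of 0. The genotype difference in HSC was -0.10 for Psmc1, -0.75 for Psmc2, -0.41 for Psmd2, -0.49 for Psmd11 and 0.04 for Psmd12, and in MPP it was 0.18, -0.09, -0.19, 0.13 and 0.39. None of these passed the test. Psmb6, with the antioxidant response element, is described above.

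Of the base subunits that are not ATPases, Psmd2, a scaffold on which ubiquitin-binding proteins dock, had the largest population difference. Its wild-type HSC arrays read 9.54, 9.64 and 9.07, all below wild-type MPP at 10.13, 10.04 and 9.92. NFAT5-deficient HSC read 9.49, 7.80 and 9.74 and NFAT5-deficient MPP 10.03, 9.19 and 10.29, with overlap. HSC minus MPP was -0.72 in the mean of both genotypes (SE 0.33, limma adjusted p = 0.414), and -0.42 without NFAT5-deficient HSC array 70, its lowest. Psmd4, a ubiquitin receptor, ran from 7.67 to 10.65 within wild-type HSC alone, and its HSC genotype difference of 0.98 had an SE of 0.63. That difference was 0.227 without wild-type array 66 (7.67) and 1.72 without wild-type array 75 (10.65). Psmd1 averaged -0.51 over both populations by genotype (SE 0.34), or -0.327 without NFAT5-deficient HSC array 64.

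In the lid, Psmd12 was the gene with the smallest unadjusted p for genotype in MPP. It read 10.47, 10.85 and 10.72 in wild-type and 10.99, 11.16 and 11.05 in NFAT5-deficient MPP, without overlap, a difference of 0.39 (SE 0.14, limma adjusted p = 0.896). In HSC the groups overlapped at 10.57, 10.63 and 10.87 against 10.60, 10.87 and 10.72, a difference of 0.04. Psmd8 had its arrays apart by genotype in HSC instead, with 8.94, 9.42 and 9.84 in wild-type and 9.88, 9.95 and 10.24 in NFAT5-deficient cells (difference 0.62, SE 0.29, limma adjusted p = 0.817). Without wild-type array 66 it was 0.39. In MPP its difference was -0.18.

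Psmd14, the lid enzyme that cuts ubiquitin chains off substrates, differed by 0.05 between genotypes in HSC and by 0.00 in MPP (SE 0.37), and by -0.43 between HSC and MPP in the mean of both genotypes (SE 0.26, limma adjusted p = 0.546). The latter was -0.24 without NFAT5-deficient HSC array 64. Psmd13 had the widest spread in the lid. It read 11.16, 7.81 and 9.35 in wild-type and 8.26, 7.46 and 9.31 in NFAT5-deficient HSC, and 8.90, 8.69 and 9.67 in wild-type and 9.57, 9.68 and 10.31 in NFAT5-deficient MPP. Wild-type HSC held both its highest and its next-to-lowest value, and the HSC groups overlapped. The HSC genotype difference of -1.09 (SE 0.74, limma adjusted p = 0.883) rested on wild-type array 66. It was -0.234 without that array, -0.65 without NFAT5-deficient array 70, 0.208 without both, and -1.91 without wild-type array 67.

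The 3 assembly chaperones hold the ATPases during construction of the base and leave the finished particle. Psmd10 read 9.32, 10.13 and 10.53 in wild-type and 9.61, 10.44 and 9.48 in NFAT5-deficient HSC, against 11.46, 11.18 and 10.32 in wild-type and 10.40, 10.07 and 10.62 in NFAT5-deficient MPP. Groups overlapped within each genotype, and HSC minus MPP was -0.76 in their mean (SE 0.27, limma adjusted p = 0.314). Psmd5 was lower on all wild-type HSC arrays (8.50, 8.76 and 8.64) than on wild-type MPP arrays (9.27, 9.05 and 9.55), by -0.65 (SE 0.34, limma adjusted p = 0.628). In NFAT5-deficient cells that difference was -0.23. For Psmd9 the genotype difference was 0.29 in HSC and 0.08 in MPP (SE 0.27). The HSC value was 0.0088 without NFAT5-deficient array 70 and 0.579 without NFAT5-deficient array 64.

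The activators held the gene with the smallest p of all 37 in the mean of both genotypes. Psme2, which pairs with Psme1 in the interferon-inducible cap that favours production of antigenic peptides, read 9.33, 9.85 and 10.02 in wild-type and 9.75, 9.92 and 9.58 in NFAT5-deficient HSC. In MPP it read 10.13, 10.50 and 10.58 in wild-type and 10.33, 9.97 and 10.33 in NFAT5-deficient cells. In both genotypes all HSC arrays lay below all MPP arrays. HSC minus MPP was -0.67 in wild-type cells (SE 0.22), -0.46 in NFAT5-deficient cells (SE 0.22) and -0.57 in their mean (SE 0.16, 95% interval -0.91 to -0.22, unadjusted p = 0.0042, limma adjusted p = 0.184). The genotype difference was 0.02 in HSC and -0.19 in MPP.

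Psme2 is uncertain in one respect, because the near-identical copy Psme2b has a probe set of its own and the array may not tell the copies apart. Psme2b differed between HSC and MPP by -0.70 in wild-type cells and by -0.45 without NFAT5, close to the values of Psme2. Psme1, its partner, read 11.75, 11.85 and 11.20 in wild-type and 11.57, 11.54 and 11.43 in NFAT5-deficient HSC. In MPP it read 11.61, 11.69 and 11.69 in wild-type and 11.80, 11.80 and 11.68 in NFAT5-deficient cells. Its HSC and MPP arrays overlapped in wild-type and not in NFAT5-deficient cells, and HSC minus MPP was -0.06 and -0.24 (SE 0.14).

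Psme3, which forms a cap of its own in the nucleus, ranged from 7.84 to 10.44 within wild-type HSC and its group means lay between 8.58 and 9.02. Psme4, a large single-chain activator, was the least reproducible of the 37 genes, at 7.43, 8.62 and 5.83 in wild-type HSC and 6.74, 5.99 and 9.02 in NFAT5-deficient HSC. In MPP it read 6.40, 6.41 and 8.67 in wild-type and 9.23, 9.16 and 7.34 in NFAT5-deficient cells. Its genotype difference in MPP was 1.42, with a 95% interval from -0.72 to 3.56, and it was 2.17 without wild-type MPP array 75. No direction could be given.

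Counted by arrays that did not overlap, genes that read lower in HSC than in MPP numbered 7 in wild-type cells (Psma2, Psmb1, Psmb4, Psmc6, Psmd2, Psmd5 and Psme2), against 4.74% of all genes and 6.85% of genes above the median level. Only Psmc1 was higher without overlap (7.54% of all genes, 5.77% above the median level). In NFAT5-deficient cells 6 were lower (Psmb2, Psmc6, Psmd12, Psmd13, Psme1 and Psme2, against 5.39% and 8.08%) and 0 higher (11.5% and 9.25%). Psmc6 and Psme2 were on both lists. By genotype, 4 genes were higher without overlap in NFAT5-deficient HSC (Psma2, Psmb1, Psmc5 and Psmd8, against 3.55% of all genes and 4.88% of those above the median level) and 1 lower (Psmc2, 6.61% and 4.87%). In MPP, 4 were higher (Psma6, Psmc1, Psmc4 and Psmd12, against 3.8% and 5.57%) and 1 lower (Psmb4, 8.84% and 6.37%). No gene was on both genotype lists in the same direction.

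Spread between arrays is given by subcomplex. The pooled SD within groups had a median of 0.172 in the alpha ring, 0.216 in the beta ring, 0.292 in the ATPases, 0.415 in the lid, 0.414 in the chaperones, 0.628 in the base subunits that are not ATPases and 0.680 in the activators. Single genes ran from 0.07 (Psma5) to 1.35 (Psme4). The median over the 37 genes was 0.300, against 0.252 over all genes and 0.452 over the 7667 genes at least as bright as the dimmest of the 37.

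Variation shared by the subunits from array to array, after group means were removed, was near 0. The mean correlation over their 666 pairs was 0.0111 across the 12 arrays, with 53.2% of pairs above 0. It was 0.0161 over pairs of all genes and 3e-04 over pairs of genes at least as bright as the dimmest of the 37. Pairs share arrays and are not independent, so these are descriptions. The median level of the 37 genes per array averaged 10.21 ± 0.16 (SD, n = 3) in wild-type HSC, 10.18 ± 0.12 in NFAT5-deficient HSC, 10.23 ± 0.12 in wild-type MPP and 10.30 ± 0.03 in NFAT5-deficient MPP.

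Other genes of the pathway, taken from a list, also gave 0 calls in all 7 comparisons. They were 3 immunoproteasome subunits, 3 further or tissue-specific subunits, 5 assembly factors, 7 inhibitors and associated factors, 4 regulators of proteasome genes, 1 ubiquitin-activating enzyme and 8 shuttle and segregase factors. Among the immunoproteasome genes, Psmb8 averaged 9.90 ± 0.08 in wild-type HSC, 9.52 ± 0.39 in NFAT5-deficient HSC, 10.13 ± 0.11 in wild-type MPP and 9.95 ± 0.16 in NFAT5-deficient MPP (SD, n = 3). Its genotype difference in HSC was -0.38 (limma adjusted p = 0.852) and its HSC minus MPP difference over both genotypes -0.33 (limma adjusted p = 0.406). The HSC genotype value was -0.60 without NFAT5-deficient array 64 and -0.234 without NFAT5-deficient array 76. Psmb9 went the other way by genotype in HSC, at 11.36 ± 0.08 in NFAT5-deficient cells against 11.19 ± 0.12, a difference of 0.17 (limma adjusted p = 0.869). Over both genotypes its HSC minus MPP difference was -0.06. Psmb10 had a genotype difference of -0.21 in HSC (SE 0.31, limma adjusted p = 0.94), and HSC minus MPP was 0.02 over both genotypes.

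Psma8, the testis-specific form of an alpha subunit, had the largest genotype difference of the listed genes, and its arrays disagreed. It read 9.56, 7.71 and 9.04 in wild-type and 7.29, 5.54 and 7.65 in NFAT5-deficient HSC, and 6.99, 8.35 and 8.12 in wild-type and 5.53, 4.55 and 7.69 in NFAT5-deficient MPP. HSC groups did not overlap and MPP groups did. The mean difference over both populations was -1.92 (unadjusted p = 0.008, limma adjusted p = 0.656).

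Psmf1, an inhibitor of the core particle, differed by genotype in MPP by -1.03 (unadjusted p = 0.005, limma adjusted p = 0.871), and by -0.89 between HSC and MPP in wild-type cells (limma adjusted p = 0.386). Nfe2l1, the inducer of subunit genes, read higher in NFAT5-deficient HSC than in NFAT5-deficient MPP by 1.04 (limma adjusted p = 0.64; 0.578 without MPP array 70) and by 0.70 in the mean of both genotypes (limma adjusted p = 0.443). Psmg2, an assembly chaperone of the alpha ring, was lower in HSC by a mean log2 difference of -0.85 (limma adjusted p = 0.362).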

How the data were processed

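The authors deposited 1 table of log2 intensities for 12 single-colour arrays and 22142 probe sets, with values from 2.51 to 13.28; the log2 scale was read from these values. RMA and limma are named, without versions or roles, per the submitters' processing notes. No scanner file, detection call or scan date was used, so technical batches were not tested, and the number of arrays limits the precision. The platform annotation gave 19527 probe sets 1 symbol and 2615 (11.8%) none. For 33 genes with several probe sets the brightest stood for the gene, which left 19494; each proteasome gene had 1. No filter on low values and no further normalization was applied.

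A linear model with 1 mean per group (4 groups, 12 arrays) was fitted with limma 3.58.1 (R 4.3.3) and a variance prior that follows intensity, and p-values were adjusted by Benjamini-Hochberg over all 19494 genes. The 7 comparisons were genotype in HSC, in MPP and in their mean, HSC minus MPP in each genotype and in their mean, and the difference of the genotype effects. The fit was run on simulated data for the genotype comparison in HSC alone. That run checked the direction of added changes and that larger ones were called more often. It does not tell how many true changes of proteasome genes the test would miss. An exact two-sided permutation test was used for Nfat5 alone, in HSC and in MPP. All 37 genes were counted and drawn. Values per array are given for only some of them, chosen among those with the smallest p, arrays that did not overlap, catalytic roles or the extremes of spread. The genes and lists were chosen with earlier results of these data known. Motifs and the promoters shown were chosen after values were seen; promoter sequences are from RefSeq. Alternatives were other scalings, filters, variance priors and fits, a replicate block, array weights and leaving out arrays. Drawings used Python 3.11.15 and matplotlib 3.10.9.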

Additional observations from a re-analysis of the deposited data

How the results depend on the processing

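No alternative that kept the adjustment over all genes gave a called proteasome gene: filters, variance priors, scalings, array weights, fits of only the groups compared and each array left out all stayed at 0 of 37. At an unadjusted p under 0.05 the counts were 1 (genotype in HSC), 3 (in MPP), 3 (mean of both), 1 (difference of the effects), 5 (HSC minus MPP in wild-type), 2 (in NFAT5-deficient cells) and 3 (mean of both genotypes). Without wild-type HSC array 66 and NFAT5-deficient HSC array 70, a setting chosen after seeing the data, the median log2 difference was -0.0976 for the difference of the effects, -0.0376 for wild-type HSC minus MPP and -0.162 for the NFAT5-deficient one. In that setting the genotype difference in HSC reversed to 0.208 for Psmd13, -0.167 for Psmb7 and -0.268 for Psme2; the cause was not tested. With each array left out in turn, the medians ran from -0.084 to 0.0414 (difference of the effects), -0.193 to -0.0376 (HSC minus MPP, wild-type), -0.162 to -0.035 (NFAT5-deficient), -0.191 to -0.109 (mean of both genotypes), -0.0196 to 0.0561 (genotype in HSC) and -0.035 to 0.078 (in MPP). The wild-type HSC minus MPP value of Psme1 ran from -0.188 to 0.136, the highest without wild-type HSC array 75. A change of sign smaller than 1 SE was not counted as a reversal.

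Arrays of HSC and MPP share numbers, but no label says that a number marks a mouse. Deviations of same-numbered arrays correlated at -0.0137 to 0.0641, and 2 of 6 HSC arrays, wild-type 66 and 67, correlated best with their own number. With 3 arrays a group these values cannot settle whether a number marks a mouse. The main fit used no pairing, since the submitters' notes give none. The consensus correlation of the number as a replicate block was 0.0454. With the number as a block, 0 of 37 genes were called in each comparison it could be fitted for. Every number has an HSC and an MPP array, so the block cannot change the HSC minus MPP differences. Their medians stayed at -0.153 in wild-type, -0.0494 in NFAT5-deficient cells and -0.147 in their mean. These unchanged medians are therefore no test of the main fit. For the same comparisons, the count of all genes called fell to 5, 3 and 52.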
